A study of Mus musculus with 3 samples.

Results

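The cluster of miR-302 and miR-367 was examined in small RNA libraries of mouse TAG1 ES cells. Its members were taken by name, as every listed arm of miR-302a, miR-302b, miR-302c, miR-302d and miR-367, and 9 of the 693 listed miRNAs met the rule. These were both arms of miR-302a, miR-302b, miR-302d and miR-367 and the 3p arm of miR-302c, while miR-302c-5p was not analysed here. TAG1 is a single engineered ES cell line in which doxycycline (Dox) switches on Alk4*, a constitutively active activin/Nodal type I receptor that phosphorylates Smad2/3. All 3 libraries came from this line, so every library carries the inducible receptor.

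The Control library came from untreated cells grown with serum and LIF, the cytokine that keeps mouse ES cells undifferentiated. The SB library came from cells given 30 µM SB-431541 (SB-431542 in the methods) during 16 hrs, an inhibitor of activin/Nodal/TGF-β type I receptors, so that p-Smad2/3 was repressed. For the Dox library the inhibitor was followed by 1 µg/µl Dox during 12 hrs, so that p-Smad2/3 was induced. According to the methods, Control cells were in serum medium and the treated cells in medium with knockout serum replacement, and both media held LIF. The effects of medium and treatment cannot be told apart in any comparison with Control. The Dox cells also had the longer time in culture after the inhibitor was added. This time, Dox itself and the receptor cannot be told apart in the comparison of Dox with SB. The paper checked the effect of Dox without the receptor by qPCR in the parental line J1, for selected miRNAs with no member among them. There was 1 library per condition, so no difference between conditions could be tested. Intervals below are exact 95% intervals (Poisson for levels, Clopper-Pearson for shares and ratios) and cover counting error only.

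The cluster is known as a miRNA locus of pluripotent cells, where its primary transcript depends on Oct4 and Sox2, and it is best known from human ES cells and from the epiblast and primed stem cells of the mouse. Each hairpin can give 2 mature miRNAs, 1 from its 5p and 1 from its 3p arm, and the 3p arm is usually regarded as the guide of the miR-302 hairpins. The miR-302 3p arms are known regulators of the G1 to S transition and of Lefty genes, which encode secreted inhibitors of Nodal. In mouse ES cells most miRNAs with the same seed come from another cluster, that of miR-290 to miR-295. A seed is the stretch of bases 2 to 8 that pairs with targets.

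The 5 hairpins lie on the plus strand of chromosome 3 of GRCm38, at chr3:127545228-127545807, in the order Mir302b, Mir302c, Mir302a, Mir302d and Mir367. They span 580 bases and are 66 to 75 bases long. All 5 lie in 1 intron of Larp7, which is on the minus strand at chr3:127536714-127553349 and encodes a protein of the 7SK small nuclear RNP, and 0 exons of Larp7 overlap them. The RefSeq lncRNA gene Gm51018, at chr3:127545089-127546903 on the plus strand, overlaps all 5 hairpins.

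**Figure D1:**
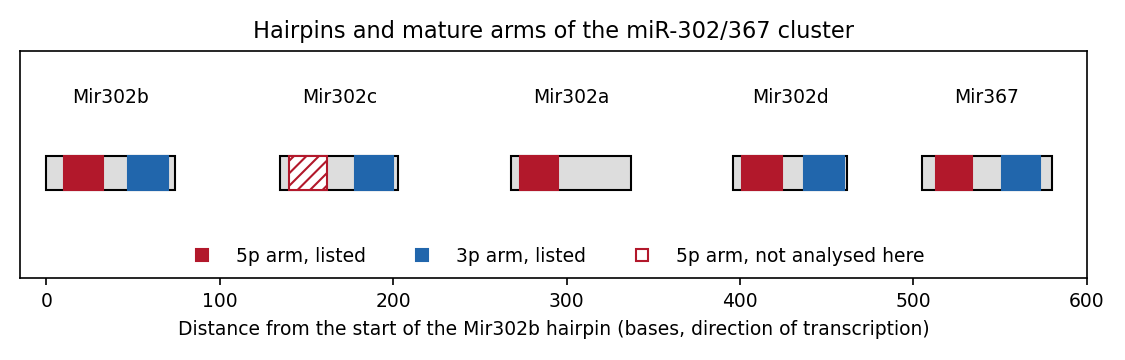
Map of the 5 hairpins (grey boxes) with their mature arms, plotted to scale by distance in bases from the start of the Mir302b hairpin in the direction of transcription. Red boxes are 5p arms, blue boxes are 3p arms and the hatched box is miR-302c-5p (miR-302a-3p is not drawn), and the Mir367 hairpin starts 505 bases after that of Mir302b.

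The mature sequences below are the RefSeq entries (GRCm38.p6) that matched 8 of the 9 members by name, and they are shown because seeds and shared stretches decide which values can be read together. Each is written 5′ to 3′ with its seed in capitals. The 3p arms of miR-302b and miR-302d had the same seed, and that of miR-302c began 1 base later in the same motif.
miR-302b-3p: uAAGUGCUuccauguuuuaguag
miR-302d-3p: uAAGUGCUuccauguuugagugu
miR-302c-3p: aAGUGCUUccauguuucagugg
miR-291a-3p: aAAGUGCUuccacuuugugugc
miR-294-3p: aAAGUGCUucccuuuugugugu
miR-295-3p: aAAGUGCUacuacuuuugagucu
The last 3 are the listed arms of the miR-290 to miR-295 cluster with the AAGUGCU seed. miR-302b-3p and miR-302d-3p differed at 3 of 23 positions and shared a run of 17 bases. That is also the length of the shortest reads the authors kept, so a trimmed read of that run could come from either arm. Runs shared with miR-302c-3p were 16 bases long. miR-302a-3p, the member without a matched sequence, was not compared, so the runs it shares with these arms are not known here.

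The 5p arms are shown next, because they moved apart from the 3p arms in these libraries. miR-302b-5p and miR-302d-5p had 1 seed in common, miR-302a-5p had another, and their longest shared run was 12 bases, below the shortest read kept.
miR-302b-5p: aCUUUAACaugggaaugcuuucu
miR-302d-5p: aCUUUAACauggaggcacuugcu
miR-302a-5p: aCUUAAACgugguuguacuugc
miR-367 differs from the miR-302 hairpins in both arms, and the seed of its 3p arm is that of miR-25 and miR-92a.
miR-367-5p: aCUGUUGCuaacaugcaacuc
miR-367-3p: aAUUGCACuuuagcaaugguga
miR-25-3p: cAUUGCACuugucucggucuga
miR-92a-3p: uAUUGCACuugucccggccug

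The cluster was a minor source of miRNA in these cells. The authors' values are rpm, reads of a miRNA scaled to a total for its library. The totals recovered from the values were 10955686 reads in Control, 11354692 in SB and 9895513 in Dox, and 3102292, 2739358 and 3302828 reads fell on listed miRNAs. These totals are below the read totals that the study states for the libraries, by unequal amounts, and the cause was not tested. All 9 members together took 1104 reads in Control, 999 in SB and 846 in Dox. This was 0.0356% (0.0335 to 0.0377%) of the reads on listed miRNAs in Control, 0.0365% (0.0342 to 0.0388%) in SB and 0.0256% (0.0239 to 0.0274%) in Dox. The share in Dox was below those in Control and SB beyond counting error, and the intervals of Control and SB overlapped. In rpm, the 14 listed arms of miR-290 to miR-295 summed to 812 times the members in Control, 740 times in SB and 1097 times in Dox.

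The ES cell label was checked against miRNA markers. All 9 ES cell markers, arms of miR-290 to miR-295, were listed and summed to 74922 rpm in Control, 59655 rpm in SB and 85022 rpm in Dox. They did not move as 1 group, since 3 were called higher and 2 lower in SB/Control and 4 higher and 4 lower in Dox/SB, and the largest, miR-290-5p, had 35638, 18094 and 37406 rpm. Markers of other cells were present too. The 3 neural markers summed to 1789, 1552 and 2362 rpm in the same order, mostly from miR-124-3p, the 3 muscle markers to 44.0, 95.1 and 54.7 rpm, and 2 of 4 blood markers, with miR-142-3p and miR-223-3p not analysed here, to 6.02, 5.37 and 24.2 rpm. The 12 fibroblast markers are given below, beside the 3p arms. Fewer cells of a type and less miRNA per cell cannot be told apart in bulk RNA.

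The highest member in Control and Dox was miR-302a-5p, the arm that is usually regarded as the passenger strand. Its level was 41.8 rpm in Control (38.1 to 45.8, 458 reads), 20.9 rpm in SB (18.3 to 23.7, 237 reads) and 47.6 rpm in Dox (43.4 to 52.1, 471 reads). The SB level was clear of both others, and those of Control and Dox overlapped. It ranked 204th, 254th and 211th among the 693 listed miRNAs.

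miR-302d-3p was second in Control and Dox and first in SB. Its level was 27.2 rpm in Control (24.2 to 30.5, 298 reads), 32.8 rpm in SB (29.6 to 36.4, 373 reads) and 15.8 rpm in Dox (13.4 to 18.4, 156 reads). The Dox library was the low one, and the intervals of Control and SB overlapped. miR-302b-3p had 12.5 rpm in Control (10.5 to 14.8, 137 reads), 18.1 rpm in SB (15.7 to 20.7, 205 reads) and 8.49 rpm in Dox (6.77 to 10.5, 84 reads). SB was clear of both others, while the upper bound of Dox only just reached the lower bound of Control. miR-302a-3p, from the hairpin with the abundant 5p arm, had 9.13 rpm in Control (7.43 to 11.1, 100 reads), 7.31 rpm in SB (5.82 to 9.06, 83 reads) and 5.05 rpm in Dox (3.75 to 6.66, 50 reads). Dox was clear of Control, and this was the only miR-302 3p arm without its highest level in SB. miR-302c-3p had 2.37 rpm in Control (1.55 to 3.48, 26 reads), 4.32 rpm in SB (3.19 to 5.71, 49 reads) and 0.910 rpm in Dox (0.416 to 1.73, 9 reads). Dox was clear of SB, and both overlapped Control.

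The other 4 members had 44 reads or fewer in any library. miR-302d-5p had 4.02 rpm in Control, 2.38 rpm in SB and 2.83 rpm in Dox, from 44, 27 and 28 reads, with overlapping intervals. miR-302b-5p had 1.00, 0.352 and 1.52 rpm in the same order, from 11, 4 and 15 reads, and its intervals also overlapped. The miR-367 hairpin was low on both arms. miR-367-3p, the arm with the miR-25/92 seed, had 1.73, 1.67 and 3.13 rpm from 19, 19 and 31 reads, and miR-367-5p had 1.00, 0.176 and 0.202 rpm from 11, 2 and 2 reads. The intervals of these levels overlapped between all libraries for either miR-367 arm. The ratios between libraries have intervals of their own, given below.

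The order of the arms was similar only in part. In Control the intervals separated miR-302a-5p, miR-302d-3p and the next pair, miR-302b-3p and miR-302a-3p, which overlapped each other. In SB miR-302d-3p was above miR-302a-5p, and miR-302a-5p and miR-302b-3p could not be separated. In Dox the first 4 places, miR-302a-5p, miR-302d-3p, miR-302b-3p and miR-302a-3p, were separated at each step. From the fifth place down neighbours overlapped in every library, except miR-367-3p and miR-302b-5p in SB. Library preparation takes up different sequences with different efficiency, so the order is one of reads and not of molecules.

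**Figure D2:**
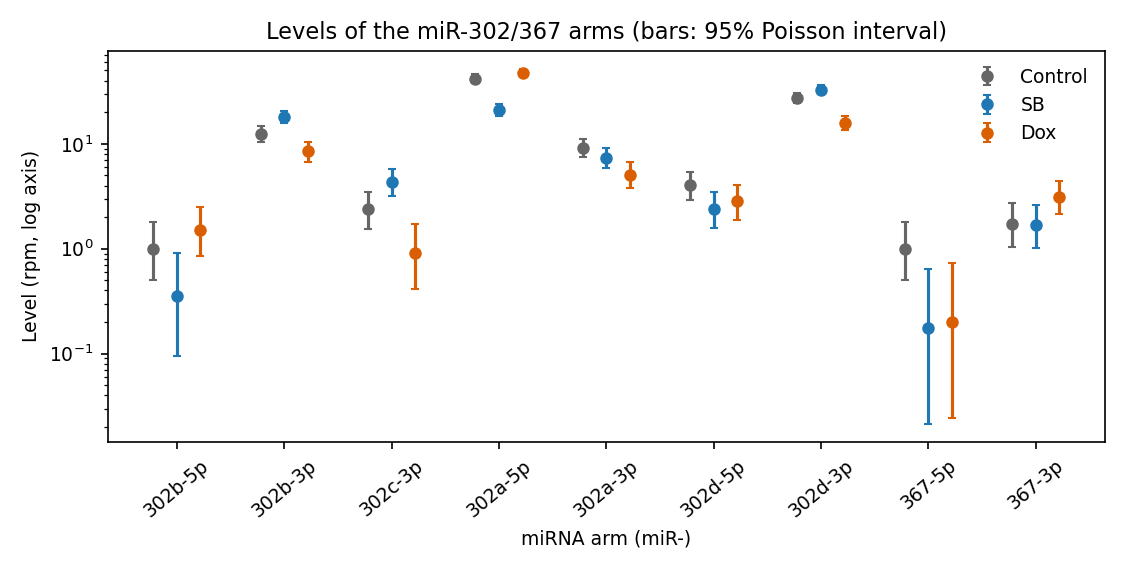
Level of each member in each library, in rpm on a log axis, with points for the deposited value and bars for the exact 95% Poisson interval, 1 library per condition. SB is the low library for miR-302a-5p at 20.9 rpm, and Dox is the low library for all 4 miR-302 3p arms.

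The 3p and 5p arms of miR-302 were then summed apart. The 4 miR-302 3p arms summed to 51.2 rpm in Control (47.1 to 55.6, 561 reads), 62.5 rpm in SB (58.0 to 67.3, 710 reads) and 30.2 rpm in Dox (26.9 to 33.8, 299 reads). The 3 listed 5p arms summed to 46.8 rpm in Control (42.9 to 51.1, 513 reads), 23.6 rpm in SB (20.9 to 26.6, 268 reads) and 51.9 rpm in Dox (47.5 to 56.6, 514 reads). The SB library had the highest 3p sum and the lowest 5p sum, while the sum over all 9 members was 101 rpm in Control, 88.0 rpm in SB and 85.5 rpm in Dox. Its log2 ratio was -0.20 in SB/Control and -0.04 in Dox/SB, closer to 0 than that of either arm, and -0.24 in Dox/Control.

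The libraries were compared in pairs by the log2 ratio of rpm, the first library over the second. SB/Control and Dox/SB share the SB library, and Dox/Control shares a library with each, so a low or high SB value enters both of the first comparisons with opposite sign. Over all 693 listed miRNAs the median log2 ratio was -0.19 for SB/Control, 0.38 for Dox/SB and 0.19 for Dox/Control, and values relative to these medians are given for the sums.

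A miRNA was called lower or higher when its rpm differed by at least 1.25-fold and the Z-score on the reads of the 2 libraries was at least 1.96 in size, the criteria of the study. The Z-score compares 2 libraries and not 2 conditions. For SB/Control 209 of the listed miRNAs were called lower (30.2%) and 106 higher (15.3%), for Dox/SB 17.9% were called lower and 289 higher (41.7%), and for Dox/Control 137 lower (19.8%) and 212 higher (30.6%). These splits depended on the scaling. With libraries scaled to their reads on listed miRNAs 20.8% were lower and 23.8% higher for SB/Control, 31.5% and 23.5% for Dox/SB, and 29.1% and 20.6% for Dox/Control. By the fold alone, 42.9% were lower and 26% higher in SB/Control, where 4 and 2 members were, 26.6% and 52.5% in Dox/SB, where 4 and 3 members were, and 29.1% and 42.6% in Dox/Control, where 6 and 2 members were.

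In SB/Control 3 of 9 members were called lower, against 30.2% of all listed, and 2 higher, against 15.3%. The median over the 9 members was -0.32, against -0.19 over all listed. All 3 called lower were 5p arms and both called higher were 3p arms. miR-302a-5p was 2.00-fold lower in SB (log2 ratio -1.0, -1.23 to -0.77). miR-367-5p was lower with a log2 ratio of -2.51 (-5.73 to -0.32), from 2 reads against 11. miR-302d-5p was 1.69-fold lower (-0.76, -1.50 to -0.03), and it was no longer called when libraries were scaled to listed reads or by the median of ratios. miR-302b-5p was low as well, at -1.51 (-3.62 to 0.24), without passing the Z-score.

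The 3p arms gave the opposite picture in SB/Control. miR-302b-3p was 1.44-fold higher in SB (0.53, 0.21 to 0.85) and miR-302c-3p 1.82-fold higher (0.86, 0.15 to 1.61). miR-302d-3p, at 1.21-fold (0.27, 0.05 to 0.50), was under the fold threshold, but it was called higher under each of the 3 other scalings. miR-302a-3p had a log2 ratio of -0.32 (-0.76 to 0.11) and miR-367-3p one of -0.05 (-1.05 to 0.95), and neither was called.

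In Dox/SB 4 of 9 members were called lower, against 17.9% of all listed, and 3 higher, against 41.7%. The median over the members was 0.20, against 0.38 over all listed. The 4 called lower were the 3p arms of the 4 miR-302 hairpins. miR-302c-3p was 4.74-fold lower in Dox (-2.25, -3.46 to -1.21), miR-302b-3p 2.13-fold (-1.09, -1.47 to -0.72), miR-302d-3p 2.08-fold (-1.06, -1.34 to -0.79) and miR-302a-3p 1.45-fold (-0.53, -1.07 to -0.01). All 4 were called lower under each of the 3 other scalings too.

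The members called higher in Dox/SB were 2 5p arms and miR-367-3p. miR-302a-5p was 2.28-fold higher in Dox (1.19, 0.96 to 1.42). miR-302b-5p was 4.30-fold higher (2.11, 0.46 to 4.15), from 15 reads against 4. miR-367-3p was 1.87-fold higher (0.90, 0.04 to 1.81), a call that was lost when libraries were scaled to listed reads or by the median of ratios. miR-302d-5p was not called, at 0.25 (-0.57 to 1.07), and neither was miR-367-5p with 2 reads in each library. Under the other scalings miR-302d-5p had a log2 ratio of -0.22 (listed reads), -0.13 (median of ratios) and -0.03 (quantile).

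In Dox/Control 5 of 9 members were called lower, against 19.8% of all listed, and 1 higher, against 30.6%. The median over the members was -0.56, against 0.19 over all listed. The 4 miR-302 3p arms were lower in Dox, by 1.47-fold for miR-302b-3p, 1.73-fold for miR-302d-3p, 1.81-fold for miR-302a-3p and 2.61-fold for miR-302c-3p. The fifth was miR-367-5p, with a log2 ratio of -2.31 (-5.53 to -0.12). miR-367-3p was the member called higher, at 1.81-fold (0.85, -0.02 to 1.76), and that call was also lost under those same 2 scalings. miR-302a-5p was 1.14-fold higher (0.19, -0.00 to 0.38), below the fold threshold, with a log2 ratio of -0.08 to -0.01 under the other scalings. miR-302d-5p, at -0.51 (-1.24 to 0.21), was not called, but it was called lower with libraries scaled to listed reads or by the median of ratios.

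**Figure D3:**
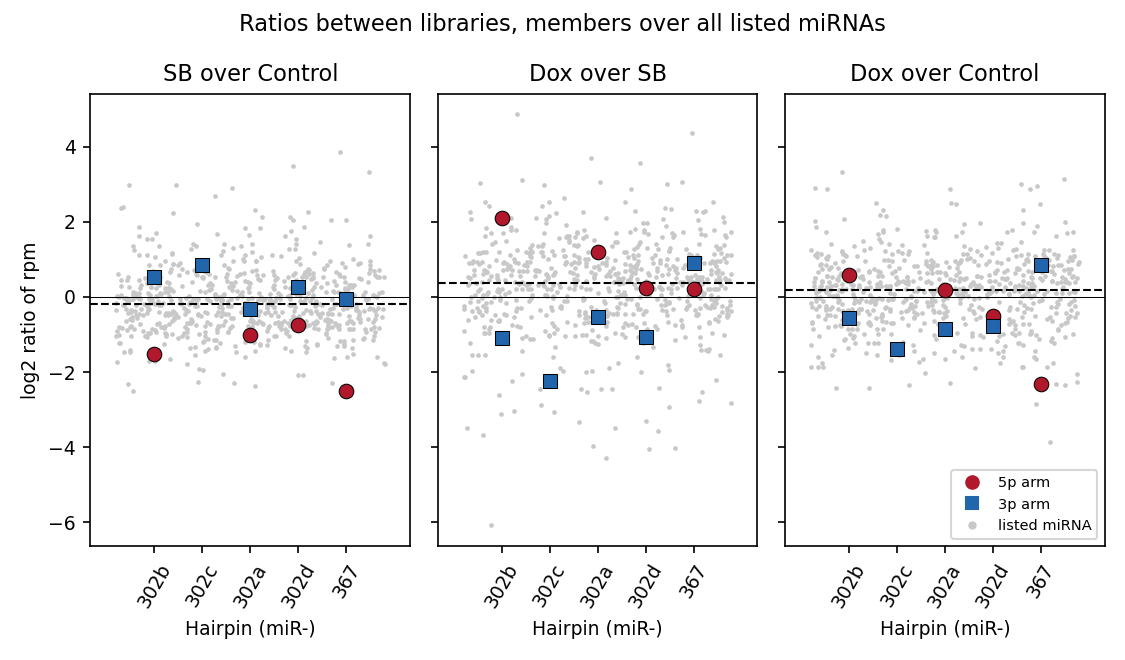
Log2 ratio of rpm for SB over Control, Dox over SB and Dox over Control, with members at their hairpin (red circles for 5p arms, blue squares for 3p arms) over all 693 listed miRNAs (grey, spread at random along the horizontal axis). The dashed line is the median of all listed miRNAs, at -0.19, 0.38 and 0.19, and the 4 miR-302 3p arms lie below it in the panels of Dox over SB and Dox over Control.

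The sums gave the same contrast with more reads behind each value. The 3p sum had a log2 ratio of 0.29 (0.13 to 0.45) in SB/Control, -1.05 (-1.25 to -0.85) in Dox/SB and -0.76 (-0.97 to -0.56) in Dox/Control. Relative to the median of all listed miRNAs these were 0.48, -1.43 and -0.95. The 5p sum had a log2 ratio of -0.99 (-1.21 to -0.77) in SB/Control, 1.14 (0.92 to 1.36) in Dox/SB and 0.15 (-0.03 to 0.33) in Dox/Control, or -0.80, 0.76 and -0.04 relative to the median. The direction of the 5p sum in Dox/Control turned under every other scaling. miR-302a-5p carried most of the 5p sum, and without it the 5p sum had a log2 ratio of 0.67 in Dox/SB and -0.21 in Dox/Control.

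The calls were also counted over all listed 5p and 3p arms. Of the 306 listed 3p arms 19.3% were called lower in Dox/SB, and of the 325 listed 5p arms 17.2%. In SB/Control 30.2% of the 5p arms and 31.7% of the 3p arms were called lower. Called higher were 17.5% of the 5p and 13.4% of the 3p arms in SB/Control, and 44.3% and 40.2% in Dox/SB. In Dox/Control 16.6% of the 5p and 24.2% of the 3p arms were called lower, and 33.8% and 27.8% higher, where 0 of 4 5p members and 1 of 5 3p members were. The medians of the 5p and 3p arms were -0.19 and -0.20 in SB/Control, 0.40 and 0.32 in Dox/SB, and 0.25 and 0.07 in Dox/Control.

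A second set of miRNAs moved in the direction of the miR-302 3p arms in SB/Control and Dox/SB, which share the SB library. All 12 fibroblast markers were listed and summed to 3867 rpm in Control, 8017 rpm in SB and 4437 rpm in Dox. Of these 11 were called higher in SB/Control and 10 lower in Dox/SB, and the most abundant was miR-21-5p at 1159, 2486 and 2041 rpm. In Dox/Control the sum of these markers was higher, where the miR-302 3p sum was lower. Single markers went both ways there, such as miR-21-5p with a log2 ratio of 0.82 and miR-125b-5p with -1.06. The part of the fibroblast markers in the difference of the 3p arms was not tested. The 3 neural markers moved in the direction of the miR-302 5p arms, with 2 called lower and 0 higher in SB/Control and 3 higher and 0 lower in Dox/SB, and their part in the difference of the 5p arms was not tested either.

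The arms of 1 hairpin come from 1 precursor, and their ratio within a library is not altered by multiplying a library by 1 factor, although quantile normalization can alter it. For miR-302a 82.1% (78.6 to 85.2%) of the reads on both arms were 5p reads in Control, 74.1% (68.9 to 78.8%) in SB and 90.4% (87.5 to 92.8%) in Dox. The Dox share was clear of both others, and those of Control and SB overlapped slightly. For miR-302d the 5p share was 12.9% (9.51 to 16.9%) in Control, 6.75% (4.50 to 9.67%) in SB and 15.2% (10.4 to 21.2%) in Dox. SB was clear of Dox, and its upper bound lay just above the lower bound of Control. For miR-302b it was 7.43% (3.77 to 12.9%), 1.91% (0.524 to 4.83%) and 15.2% (8.74 to 23.8%), and SB was clear of Dox. All 3 miR-302 hairpins with both arms thus had their lowest 5p share in SB and their highest in Dox, although 1 of them was mostly 5p reads and the others mostly 3p reads. For miR-302b and miR-302d the intervals of Control and Dox overlapped.

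miR-367 did not follow this order. Its 5p share was 36.7% (19.9 to 56.1%) in Control, 9.52% (1.17 to 30.4%) in SB and 6.06% (0.743 to 20.2%) in Dox. These shares rest on 11 5p and 19 3p reads in Control, 2 and 19 in SB, and 2 and 31 in Dox. The intervals overlapped between SB and each other library, and those of Control and Dox met only at their ends.

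Pooled over the 3 miR-302 hairpins and miR-302c-3p, 47.8% (44.7 to 50.8%) of reads were 5p reads in Control, 27.4% (24.6 to 30.3%) in SB and 63.2% (59.8 to 66.5%) in Dox. No pair of these intervals overlapped. The pool joins hairpins with unlike arm shares and holds miR-302c by its 3p arm only, so the part of each hairpin in the reads also enters it. Without miR-302a the pooled share was 10.7% (8.13 to 13.6%), 4.71% (3.22 to 6.62%) and 14.7% (10.9 to 19.3%), with SB clear of both others and those of Control and Dox overlapping. The log2 of the pooled 5p to 3p ratio differed by -1.28 (counting SE 0.14) in SB/Control, by 2.19 (0.15) in Dox/SB and by 0.91 (0.14) in Dox/Control. Without miR-302a these were -1.27 (0.34), 1.80 (0.36) and 0.53 (0.31), and the last was within 2 counting SEs of 0.

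**Figure D4:**
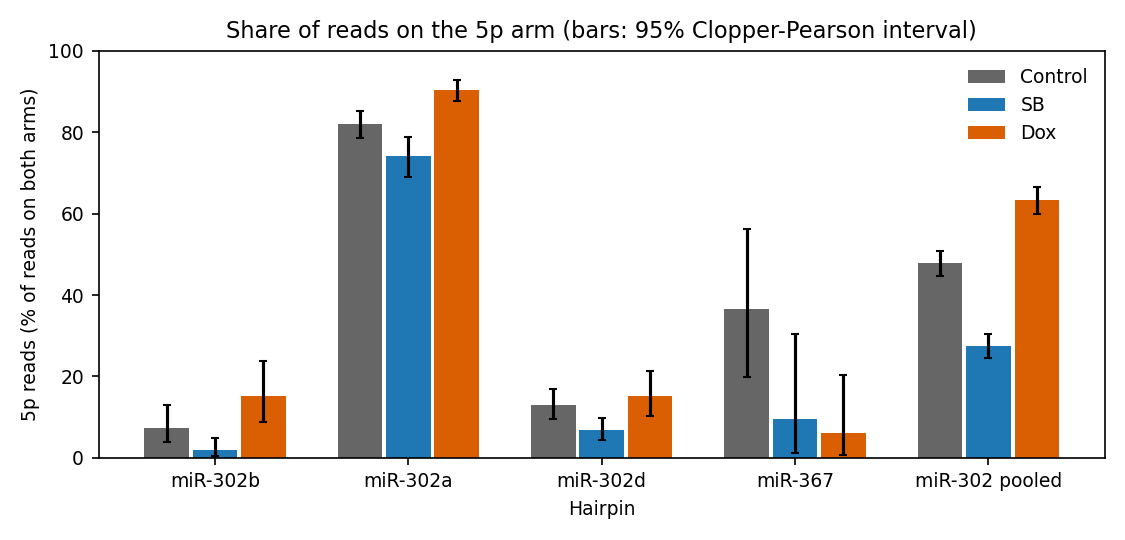
Share of 5p reads among the reads of both arms, in percent, for each hairpin with both arms listed and for the miR-302 arms pooled, in the 3 libraries, with exact 95% Clopper-Pearson intervals as bars. The pool holds miR-302c by its 3p arm only. SB has the lowest share and Dox the highest for miR-302a, miR-302b, miR-302d and the pool (27.4% and 63.2%), whereas for miR-367 the share is highest in Control. The intervals of Control and Dox overlap for miR-302b and miR-302d.

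To see where these changes lay among hairpins in general, the change of the log2 5p to 3p ratio was set beside that of 134 other hairpins with at least 20 reads on each arm in each library. miR-302a and miR-302d passed this minimum, and miR-302b and miR-367 did not. In SB/Control miR-302a changed by -0.68 and miR-302d by -1.03, where the median of the others was -0.02, and 15 and 6 of the 134 lay further down. In Dox/SB they changed by 1.72 and 1.31, where the median was 0.23, and 5 and 17 lay further up. Both were thus in the outer part of the range in both comparisons, which share the SB library. In Dox/Control miR-302a changed by 1.04, with 15 of 134 above it, and miR-302d by 0.28, near the median of 0.19. With a minimum of 10 reads 167 other hairpins were left, of which 21 lay below miR-302a and 9 below miR-302d in SB/Control, and 5 above miR-302a and 18 above miR-302d in Dox/SB.

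**Figure D5:**
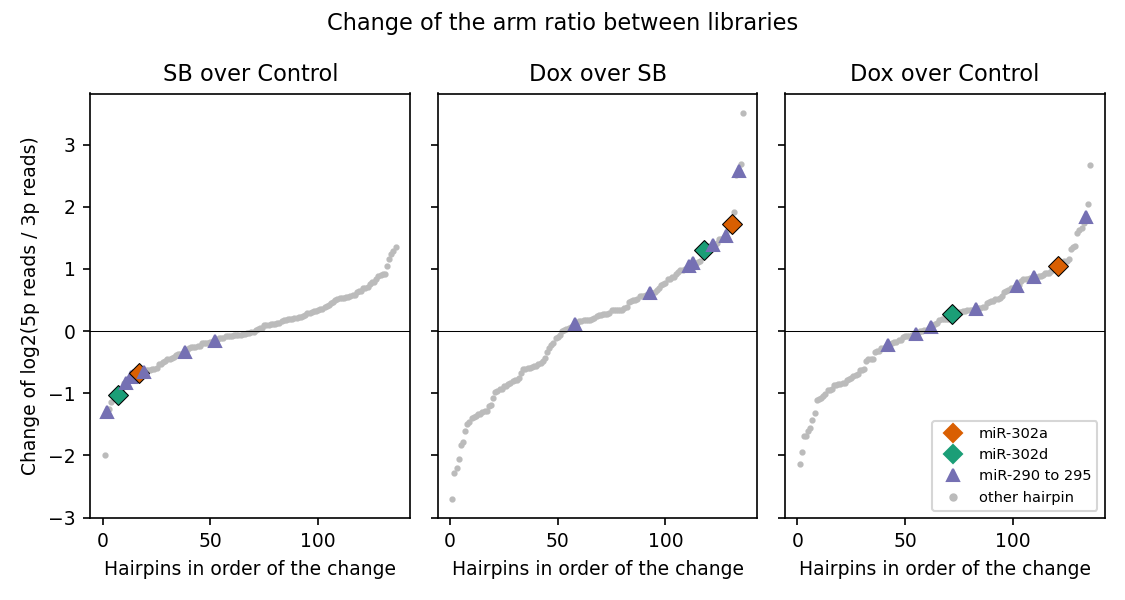
Change of log2 (5p reads / 3p reads) between libraries for the 136 hairpins with at least 20 reads on each arm in each library, placed in order of the change. miR-302a and miR-302d (diamonds) lie low in SB over Control (-0.68 and -1.03) and high in Dox over SB (1.72 and 1.31), among hairpins of miR-290 to miR-295 (triangles).

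The cluster of miR-290 to miR-295, whose 3p arms carry most of the AAGUGCU seed in mouse ES cells, was set beside the members arm by arm. Its 7 listed 5p arms had a median log2 ratio of -0.44 in SB/Control, with 5 called lower and 0 higher, and of 1.05 in Dox/SB, with 6 called higher and 0 lower. Its 7 listed 3p arms had a median of 0.26 in SB/Control, with 3 called higher and 0 lower, and of -0.33 in Dox/SB, with 4 called lower and 1 higher. In Dox/Control the 3p arms had a median of -0.00, with 2 called higher and 2 lower, where the miR-302 3p sum had a log2 ratio of -0.76. Summed, these 3p arms had 35140 rpm in Control, 38285 rpm in SB and 41068 rpm in Dox under the authors' scaling, beside 51.2, 62.5 and 30.2 rpm for the miR-302 3p arms. The 5p arms had a median of 0.39 in Dox/Control, with 4 called higher and 1 lower. The most abundant arm, miR-290-5p, had a log2 ratio of -0.98 in SB/Control beside -1.0 for miR-302a-5p, and of 1.05 in Dox/SB beside 1.19. miR-292-3p stood at 4387, 6146 and 2740 rpm, with log2 ratios of 0.49 and -1.17. The 3p arms were not uniform. miR-293-3p, at 19525, 18792 and 26448 rpm, was the one called higher in Dox/SB, at 0.49, and miR-291b-3p, at 0.57, and miR-295-3p, at 0.19, had ratios above 0 without being called. In SB/Control miR-291b-3p had a log2 ratio of -0.31 and miR-293-3p one of -0.06.

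The 5p to 3p ratio of all 7 hairpins of that cluster that passed the read minimum was lower in SB than in Control. The changes were -1.31 for miR-290, -0.66 for miR-291a, -0.33 for miR-291b, -0.73 for miR-292, -0.17 for miR-293, -0.83 for miR-294 and -0.74 for miR-295. In Dox/SB they were 1.38, 1.53, 1.05, 2.57, 0.12, 0.61 and 1.09 in the same order. The values of miR-302a and miR-302d lay within the range of these 7 hairpins in both comparisons.

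By seed, miR-302b-3p and miR-302d-3p added 12.5 and 27.2 rpm to 11247 rpm of AAGUGCU miRNAs in Control, 18.1 and 32.8 rpm to 13374 rpm in SB, and 8.49 and 15.8 rpm to 11884 rpm in Dox, the sums including them. The sums cover the 516 of 693 listed miRNAs that matched a sequence, and miR-302a-3p, at 9.13, 7.31 and 5.05 rpm, is not in them. The other 3 matched miRNAs with this seed had median log2 ratios of 0.26 in SB/Control and -0.67 in Dox/SB. miR-291a-3p was called lower in Dox/SB at -0.89, as was miR-294-3p at -0.67, and miR-295-3p was not called at 0.19. miR-302b-3p and miR-302d-3p had log2 ratios of -1.09 and -1.06 in Dox/SB, below these 3, whereas miR-302a-3p, at -0.53, was above miR-291a-3p and miR-294-3p.

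The seed of miR-367-3p occurred in 5 other listed miRNAs with a matched sequence, miR-25-3p, miR-32-5p, miR-363-3p, miR-92a-3p and miR-92b-3p, of which miR-25, miR-92a and miR-363 come from the miR-17 to miR-92 cluster and its paralogs. They had median log2 ratios of -0.38 in SB/Control and 0.60 in Dox/SB, and 4 of 5 were called lower in the first and 4 of 5 higher in the second. miR-367-3p, with -0.05 and 0.90, was called higher in the second. Its 1.73, 1.67 and 3.13 rpm stood beside 18912, 13576 and 21443 rpm over all 6 miRNAs with the seed, most of them from miR-25-3p and miR-92a-3p.

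The listed miRNAs nearest in pattern were found among 454 that had at least 100 reads over the 3 libraries, by the Euclidean distance between the log2 ratios of SB/Control and Dox/SB. Nearest to miR-302a-5p were miR-323-3p (distance 0.042), miR-370-3p (0.052), miR-3095-3p (0.078), miR-17-3p (0.088) and miR-290-5p (0.14). Nearest to the 3p sum were let-7c-5p (0.086), miR-181a-5p (0.089), miR-291a-3p (0.16), miR-5097 (0.20) and miR-93-3p (0.20). With 3 libraries the pattern of a miRNA is only 2 numbers. An arm of the miR-290 to miR-295 cluster was among the 5 nearest in both cases, a 5p arm for miR-302a-5p and a 3p arm for the 3p sum.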

How the data were processed

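Small RNA of TAG1 ES cells was sequenced in 3 libraries, 1 per condition. The paper gives its read totals over 2 runs for each sample. According to the methods, the authors removed adaptors (FASTX clipper) and retained reads of at least 17 bases. They aligned these to miRBase with Bowtie 0.12.7 (version per the submitters' processing notes), perfect matches only. A read with more than 1 matching miRNA was placed by its length or counted for each. No listed miRNA had under 13 reads in all. The deposited values are rpm, scaled by the authors to the reads of the library. All 2079 values were whole multiples of 1 step per library (largest distance from a whole number 4.0e-05), which gave the reads and totals used here.

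Ratios were taken without a pseudocount. No count model was fitted and no p-value is given. Intervals and the Z-score were computed with scipy 1.17.1 in Python 3.11.15 and tested on simulated data. RefSeq sequences matched 516 of 693 names (74.5%). Named miRNAs were the members, miRNAs with a member's seed, arms of miR-290 to miR-295, cell markers, the 5 nearest in pattern to miR-302a-5p and to the 3p sum, and the 3 hairpins with the largest arm changes each way. Members, lists and comparisons were chosen with earlier results of these data known. Alternatives were other scalings, a pseudocount of 1 rpm, read minimums and other fold thresholds.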

Additional observations from a re-analysis of the deposited data

How the results depend on the processing

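No paired analysis was possible because each condition had 1 library, and no replicate could be left out. In each comparison the difference between the 5p and 3p sums was -1.28, 2.19 and 0.91 on the log2 scale under the authors' scaling, scaling to listed reads and the median of ratios, and -1.33, 2.13 and 0.80 after quantile normalization. The sums themselves moved. The 3p sum changed to 0.52 (listed reads) and 0.47 (median of ratios) in SB/Control, to -1.52, -1.43 and -1.34 (quantile) in Dox/SB, and to -1.0 (listed reads) in Dox/Control. The 5p sum changed to -0.76 (listed reads) in SB/Control, to 0.67, 0.76 and 0.80 in Dox/SB, and to -0.088, -0.048 and -0.12 in Dox/Control. Without miR-302a-5p it was 0.67 in Dox/SB and -0.21 in Dox/Control. With at least 100 reads per miRNA, 1 member was called lower in SB/Control, against 40.4% of the miRNAs left, and 1 higher, against 19.4%. In Dox/SB 3 were called lower, against 22.5%, and 1 higher, against 53.1%. In Dox/Control 3 were called lower, against 25.1%, and 0 higher, against 39.1%. Fewer members were left at this minimum. In SB/Control 1 member was called higher at a fold of 1.5, against 11.1% of all listed, and 0 at 2, against 7.07%. In Dox/Control 2 were called lower at a fold of 2, against 8.08% of all listed. The 1 called higher became 0 at a fold of 2, against 13.6%, and 2 by fold alone, against 42.6%. It also became 0 scaled to listed reads, against 20.6%, or by the median of ratios, against 22.1%. The pooled 5p share without miR-302a was 10.7, 4.71 and 14.7%. Of 108 member ratios under other settings 96 stayed within the spread allowed by counting error, 12 moved and 0 turned a call round. The miR-367 arms had at most 31 reads in a library, and their ratios have wide intervals. A minimum of 100 reads per arm left 62 other hairpins and none of the cluster.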

Other observations

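The hairpins with the largest changes of arm ratio, among those with at least 20 reads on each arm in each library, were taken 3 each way in SB/Control and in Dox/SB, which share the SB library. The lowest in SB/Control was miR-23b, with a change of -1.99 in log2 (5p reads / 3p reads), and its 5p arm had 861, 210 and 1140 reads in Control, SB and Dox while its 3p arm had 1162, 1126 and 946. It was also among the highest in Dox/SB, at 2.69. The highest there was miR-23a, at 3.51, with 266, 180 and 1857 reads on the 5p arm and 8095, 9784 and 8858 on the 3p arm. The 5p arms of this pair thus held the change while the 3p arms moved little. miR-292 came next in Dox/SB at 2.57. In its case both arms moved, from 15270 to 35161 reads on the 5p arm and from 69785 to 27111 on the 3p arm.

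Other hairpins went the opposite way. miR-130a changed by 1.24 in SB/Control and by -2.28 in Dox/SB, with 43, 77 and 23 reads on its 5p arm. miR-139 and miR-3102 were the others at the top in SB/Control, at 1.34 and 1.28. In Control, SB and Dox miR-139 had 37, 39 and 36 reads on its 5p arm and 53, 22 and 62 on its 3p arm. miR-3102 had 50, 50 and 83 on its 5p arm and 134, 55 and 72 on its 3p arm. At the bottom in Dox/SB the others were miR-374 and miR-150, at -2.69 and -2.21. The 3p arm of miR-374 had 51, 31 and 83 reads. miR-290 and miR-466d completed the low end in SB/Control, at -1.31 and -1.25, and miR-466d had 43, 31 and 25 reads on its 5p arm. Arms with so few reads carry a large counting error. Each of these values rests on 1 library per condition.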
